A study of Mus musculus with 8 samples.

Results

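Immediate early genes are transcribed within minutes of a stimulus from factors that are already in the cell, without new protein synthesis, and many of their transcripts are short-lived. MAP kinase and calcium signals reach them through SRF with its ternary complex partners and through CREB, and many of their products are transcription factors that pass the signal on to later genes. In the heart they are known to respond to stretch, adrenergic stimulation, shear stress on the endothelium and ischemia, and tissue handling can raise them as well. The 10 genes described here were *Fos*, *Fosb*, *Jun*, *Junb*, *Egr1*, *Ier2*, *Klf2*, *Klf4*, *Atf3* and *Dusp1*. They were taken as a list by symbol, and every probe whose accession belonged to one of them was kept, which gave 12 of the 41174 probes and 10 of the 19096 named genes on the array.

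Hearts came from C57BL/6 (C57BL/6J in the methods) mouse embryos at E18.5, the last days before birth, 4 labelled wild type (WT) and 4 labelled SIRT1 KO, 1 heart per array, with no treatment and mice kept on chow. SIRT1 is an NAD-dependent protein deacetylase, and the KO allele was a whole-body germ-line deletion carried by offspring of heterozygous crosses. Hence every cell type of the heart and the rest of the embryo lacked the gene by design, and hearts of both sexes were used. Total RNA was labelled with Cy3 and read on one-color Agilent arrays, so that each value is the signal of whole heart tissue, in which fewer cells of a type and less RNA per cell cannot be told apart. Levels are given as log2 signal relative to the 75th percentile of the same array (0 is a probe at that percentile), and levels of different probes were not set against each other. Differences are SIRT1 KO minus WT on this log2 scale, tested with limma over all probes that the scanner software marked as well above background on 4 or more of the 8 arrays, with a Benjamini-Hochberg adjusted p below 0.05 as the threshold.

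The share of probes well above background ran from 59.5 to 64.9% over the arrays, and no spot was saturated. All 4 WT hearts shared 1 slide and scan day and all 4 SIRT1 KO hearts another, which means that genotype, slide and day of scanning cannot be told apart in any difference below. The 10 cardiomyocyte markers were all above background. Of the 2 *Sirt1* probes, the brighter was higher in the hearts labelled SIRT1 KO (log2 difference 0.54, SE 0.11, adjusted p = 0.0323 from limma) and the other did not pass the threshold (-0.11, SE 0.11, adjusted p = 0.589 from limma). Whether either probe lies in the deleted part of the gene was not determined here, and every direction below is by label. The summed level of the liver markers reached 114 times the array's 75th percentile in the brightest SIRT1 KO heart, against 10.8 to 26.6 in WT hearts and 12.5 in the lowest SIRT1 KO heart.

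Promoters of 8 of the 10 genes (all but *Ier2* and *Egr1*) were matched in the RefSeq table of assembly GRCm38.p6, and the 250 bases before each annotated start were searched on both strands for 5 motifs. The EGR site was searched as GCGNGGGCG, the cyclic AMP response element as TGACGTCA, the AP-1 site as TGANTCA, the TATA box as TATAAA, and the CArG box, to which SRF binds, by its name. The cyclic AMP response element is a palindrome and matches both strands at the same bases, and no matches of different motifs overlapped. *Klf4* is shown because it alone passed the threshold, *Klf2* because it is its closest relative among the 10 and did not, and *Dusp1* because it holds the cyclic AMP response element; capitals mark the matches. The windows are chr4:55532476-55532725 (minus strand) for *Klf4*, chr8:72318812-72319061 (plus strand) for *Klf2* and chr17:26508473-26508722 (minus strand) for *Dusp1*, each written 5′ to 3′ in the direction of its gene.
Klf4: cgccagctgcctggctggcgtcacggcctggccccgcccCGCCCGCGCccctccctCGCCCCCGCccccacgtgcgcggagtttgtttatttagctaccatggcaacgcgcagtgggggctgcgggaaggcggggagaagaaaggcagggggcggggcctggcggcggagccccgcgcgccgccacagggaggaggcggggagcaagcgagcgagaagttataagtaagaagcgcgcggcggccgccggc
Klf2: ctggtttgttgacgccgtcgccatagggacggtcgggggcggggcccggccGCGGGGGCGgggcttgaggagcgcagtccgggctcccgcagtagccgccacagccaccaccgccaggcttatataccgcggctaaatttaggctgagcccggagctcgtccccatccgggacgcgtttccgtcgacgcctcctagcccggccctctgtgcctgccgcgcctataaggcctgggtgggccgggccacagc
Dusp1: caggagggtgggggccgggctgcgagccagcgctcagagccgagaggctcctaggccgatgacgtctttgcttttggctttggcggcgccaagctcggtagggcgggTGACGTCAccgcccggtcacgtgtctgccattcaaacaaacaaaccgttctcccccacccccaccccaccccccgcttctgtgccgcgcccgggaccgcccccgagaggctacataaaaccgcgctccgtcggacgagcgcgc

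*Klf4* held 2 EGR sites, both on the strand opposite to the gene and therefore printed as their reverse complement, at -211 to -203 and -194 to -186 from the start. *Klf2* held 1 at -199 to -191 and *Fosb* 1 at -50 to -42. Such a match was found in 4.70% of all 32851 promoter windows of this length. The cyclic AMP response element of *Dusp1* lay at -143 to -136, and 1.55% of windows had one. *Fos* had a TATA box at -33 to -28, as did 12.4% of windows at some position. Neither the AP-1 letters (6.75% of windows) nor the CArG box (1.47%) was found in any of the 8 windows. The windows of *Jun*, *Junb* and *Atf3* held none of the motifs. Bases outside the windows, and the promoters of *Ier2* and *Egr1*, were not searched. Whether any of the genes holds a CArG box or AP-1 site there was not tested. Windows of all 8 genes were rich in G and C, from 58.4% in *Fos* to 74.0% in *Klf4*, against a median of 52.4% over all windows. The part of base composition in the EGR matches was not tested.

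Of the 10 immediate early genes, 9 were measured well enough to be tested, by 11 probes, and 1 probe passed the threshold. This was *Klf4*, which was reduced in SIRT1 KO hearts to 76.6% of the WT level. Over all 25616 probes tested, 4.88% passed in either direction and 0.91% passed as lower, and 1 call among 11 probes does not set the list apart from the array. The remaining probes were higher in 7 cases and lower in 3, by at most 0.19 on the log2 scale. The median difference over the 9 genes was 0.02, against -0.01 over all 13594 genes. Values of the 2 genotypes did not overlap for 1 of the 11 probes, and 13.7% of all probes tested had no overlap.

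**Figure D1:**
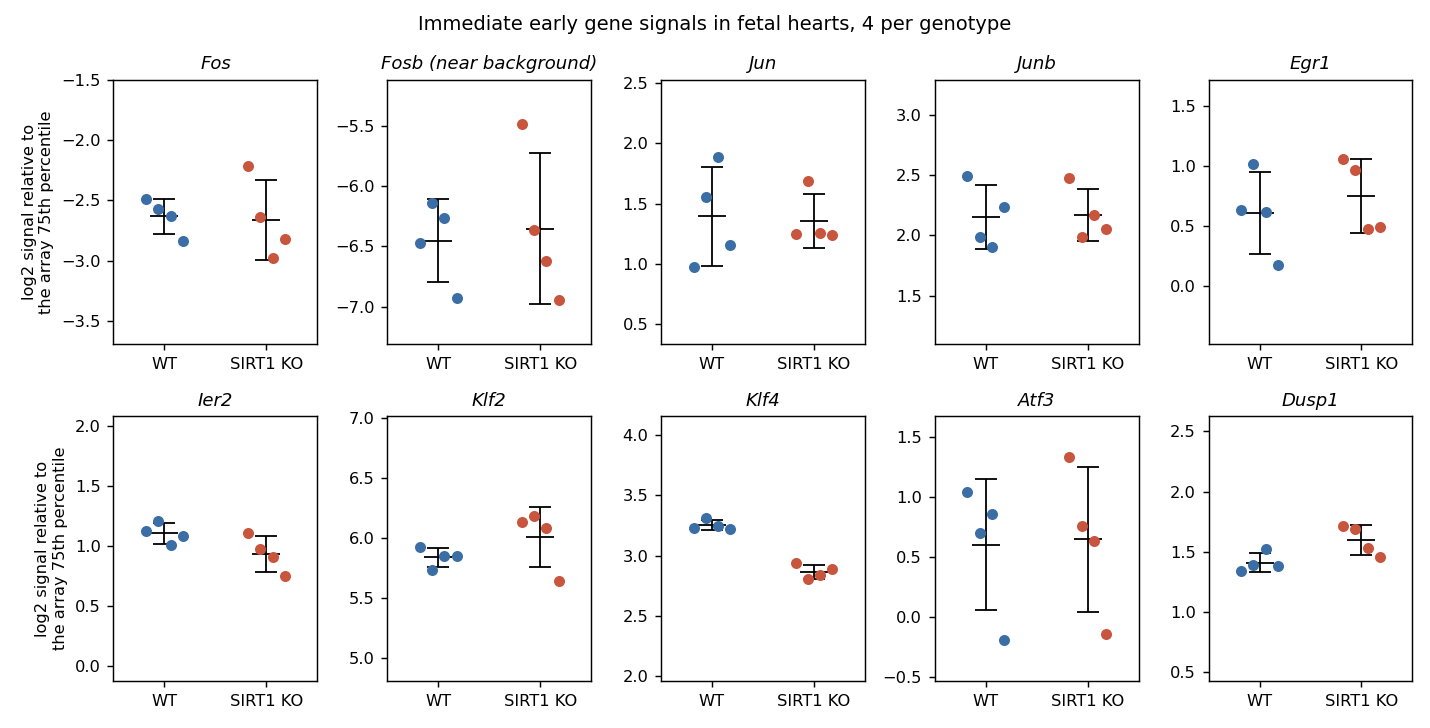
Log2 signal relative to the array 75th percentile (y axis, 2.2 log2 units high in every panel) of the brightest probe of each immediate early gene in 4 WT (blue) and 4 SIRT1 KO (red) hearts; points are hearts, and bars are the mean and SD. The 2 genotypes are apart only for Klf4 (WT 3.22 to 3.31, SIRT1 KO 2.80 to 2.94), and Atf3 has 1 low heart in each genotype.

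The AP-1 dimer joins a FOS protein to a JUN protein, and none of the tested subunits showed a genotype difference past the threshold. *Fos*, the classical partner of *Jun*, had log2 signals of -2.49, -2.57, -2.63 and -2.83 in WT hearts and -2.21, -2.64, -2.98 and -2.82 in SIRT1 KO hearts. The highest and the lowest heart were both SIRT1 KO, and the groups overlapped throughout. The difference was -0.03 (SE 0.16, 95% interval -0.39 to 0.33, adjusted p = 0.931 from limma). *Fosb*, a second FOS subunit, was well above background on 1 of the 8 arrays, that of SIRT1 KO replicate 1, and was not tested. Its log2 signals were -6.47, -6.14, -6.27 and -6.93 in WT and -5.48, -6.36, -6.62 and -6.95 in SIRT1 KO hearts.

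*Jun* had log2 signals of 0.97, 1.56, 1.89 and 1.15 in WT and 1.25, 1.69, 1.25 and 1.24 in SIRT1 KO hearts. WT hearts covered the whole range, and 3 of the 4 SIRT1 KO hearts lay close together with replicate 2 above them. The difference was -0.04 (SE 0.20, 95% interval -0.49 to 0.41, adjusted p = 0.934 from limma). *Junb*, which forms weaker activators than JUN in many settings, was read by 2 probes. The brighter probe (A_51_P159201) gave 2.49, 1.99, 1.90 and 2.24 in WT and 2.48, 1.98, 2.17 and 2.06 in SIRT1 KO hearts, with a difference of 0.02 (SE 0.15, 95% interval -0.33 to 0.36, adjusted p = 0.959 from limma). The other (A_51_P159194) gave 1.95, 1.63, 1.52 and 1.63 against 2.22, 1.74, 1.76 and 1.64, with a difference of 0.16 (SE 0.14, 95% interval -0.17 to 0.48, adjusted p = 0.560 from limma). Leaving out 1 heart moved this difference to between 0.03 and 0.25. Replicate 1 was the brightest heart of both genotypes on both *Junb* probes.

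*Egr1*, *Klf2* and *Klf4* are zinc finger transcription factors. *Egr1* binds GC-rich sites and is among the first genes to answer growth factors and stretch. Its log2 signals were 0.63, 1.01, 0.62 and 0.18 in WT and 1.05, 0.97, 0.47 and 0.49 in SIRT1 KO hearts, and both groups spanned much of the same range. The difference was 0.14 (SE 0.20, 95% interval -0.31 to 0.58, adjusted p = 0.729 from limma).

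*Klf2* and *Klf4* are Krüppel-like factors that flow induces in endothelial cells, and *Klf4* is also known from smooth muscle, epithelia and pluripotent cells. The *Klf4* probe (A_51_P213544) gave log2 signals of 3.23, 3.31, 3.24 and 3.22 in WT hearts and 2.94, 2.80, 2.84 and 2.89 in SIRT1 KO hearts. Every SIRT1 KO heart was below every WT heart, and the gap between the groups was wider than the range within either. The means were 3.25 ± 0.04 and 2.87 ± 0.06 (SD, n = 4 each), a 1.31-fold reduction with a log2 difference of -0.38 (SE 0.07, 95% interval -0.53 to -0.23, adjusted p = 0.0136 from limma). The exact two-sided permutation test gave 0.0286, the smallest p that 4 hearts against 4 can give. Ordered by p, the probe was number 487 of the 25616 tested. *Klf4* stayed past the threshold under each of 19 other settings, including the removal of any 1 heart, with differences from -0.60 to -0.36 and adjusted p from 0.0070 to 0.0487 by limma or the methods' analysis of variance. Several of these settings refit the same *Klf4* values, such as the deposited value table, and are not separate evidence. Relative to the median of all probes under the same setting, the *Klf4* difference ran from -0.48 to -0.34.

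Neither *Klf2* probe passed the threshold. The brighter (A_52_P442031) gave log2 signals of 5.92, 5.73, 5.85 and 5.85 in WT and 6.14, 6.18, 6.08 and 5.64 in SIRT1 KO hearts, so that 3 SIRT1 KO hearts were above all WT hearts and 1 was below them. Its difference was 0.17 (SE 0.12, 95% interval -0.11 to 0.45, adjusted p = 0.454 from limma), and it was 0.29 without SIRT1 KO replicate 4 (adjusted p = 0.0786 from limma). The other (A_51_P144264) gave 4.04, 4.10, 3.82 and 3.97 against 4.10, 4.20, 4.05 and 3.94, a difference of 0.09 (SE 0.09, 95% interval -0.11 to 0.29, adjusted p = 0.590 from limma). This difference was 0.04 to 0.13 when 1 heart was left out. The intervals of both *Klf2* probes lay wholly above that of *Klf4*, whereas the difference between the genes was not tested.

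As *Klf4* and *Klf2* are expressed in endothelium, the endothelial markers are given beside them. All 10 markers, *Pecam1*, *Cdh5*, *Kdr*, *Tek*, *Tie1*, *Emcn*, *Vwf*, *Eng*, *Npr3* and *Plvap*, were lower in SIRT1 KO hearts and 0 passed the threshold in limma or in the analysis of variance, with a median difference of -0.16. An unadjusted p below 0.05 was found for 2 of the 10 by both tests, against 20.4% of all genes tested in limma and 20.6% in the analysis of variance. Their summed level was 56.7 to 69.5 times the 75th percentile in WT and 50.6 to 59.1 in SIRT1 KO hearts. The part of these markers in the *Klf4* difference was not tested. Smooth muscle and pericyte markers were higher for 4 genes and lower for 4, with 0 past the threshold in limma or the analysis of variance (2 and 1 at an unadjusted p below 0.05) and a median of -0.01. Their summed level was 154 to 188 in WT and 151 to 205 in SIRT1 KO hearts.

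*Ier2*, a nuclear protein of the early response, had log2 signals of 1.12, 1.21, 1.01 and 1.08 in WT and 1.11, 0.98, 0.91 and 0.75 in SIRT1 KO hearts. SIRT1 KO hearts were mostly lower, with replicate 1 inside the WT range. The difference was -0.17 (SE 0.09, 95% interval -0.38 to 0.04, adjusted p = 0.323 from limma). *Atf3*, a stress-induced repressor of the ATF/CREB family, had log2 signals of 1.04, 0.70, 0.86 and -0.19 in WT and 1.33, 0.76, 0.64 and -0.14 in SIRT1 KO hearts. Replicate 4 was the lowest heart of both genotypes by a wide margin, and the groups covered the same range. The difference was 0.04 (SE 0.34), and its 95% interval of -0.72 to 0.81 leaves room for a change in either direction that is larger than that of *Klf4* (adjusted p = 0.956 from limma).

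*Dusp1* encodes the nuclear phosphatase that inactivates MAP kinases and closes the loop on the early response. Its log2 signals were 1.34, 1.39, 1.52 and 1.38 in WT and 1.71, 1.69, 1.53 and 1.46 in SIRT1 KO hearts. Of the 4 SIRT1 KO hearts, 3 were above all WT hearts and replicate 4 fell within the WT range. The difference of 0.19 was the largest rise on the list (SE 0.08, 95% interval -0.0019 to 0.38), and it did not pass the threshold (adjusted p = 0.237 from limma, p = 0.0571 by the exact permutation test).

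**Figure D2:**
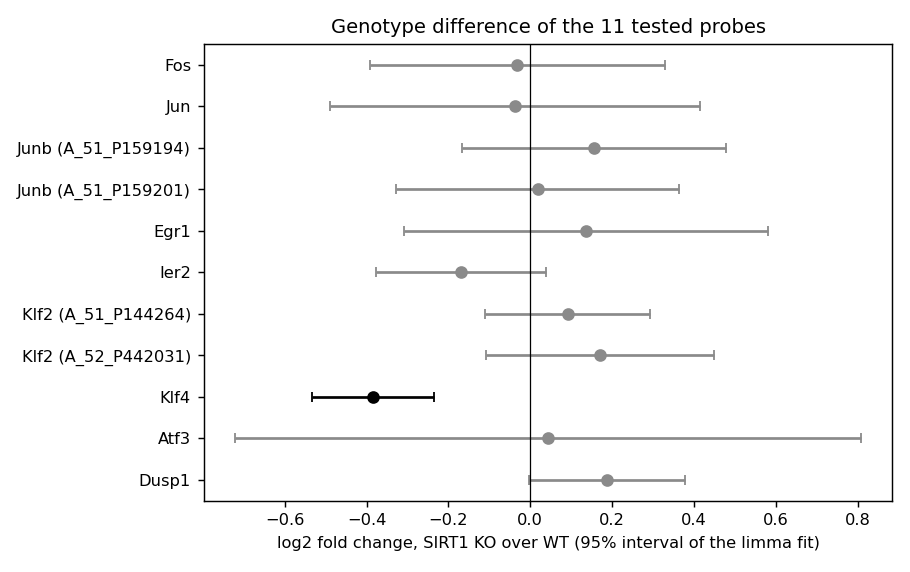
Log2 fold change of SIRT1 KO over WT (x axis) for the 11 tested probes of immediate early genes (y axis), with the 95% interval of the limma fit over 4 hearts per genotype; black marks adjusted p below 0.05. Klf4 at -0.38 is the only probe past the threshold, and Atf3 has the widest interval, from -0.72 to 0.81.

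The genes differed in how steady they were between hearts of 1 genotype. The pooled within-genotype SD of log2 signal had a median of 0.243 over the 9 genes, against 0.150 over all probes tested, and 6 of the 9 genes exceeded the latter. *Atf3* had an SD of 0.576, at percentile 97.1 of all tested probes, and its lowest and highest hearts were 1.52 log2 units apart. *Jun* (percentile 89.7), *Egr1* (89.2), *Fos* (81.4) and both *Junb* probes (75.6 and 79.3) were also among the more variable probes. The brighter *Klf2* probe (65.3) was also above the median, whereas the other *Klf2* probe (28.6), *Ier2* (33.1) and *Dusp1* (21.0) were below it. *Klf4* was at the other end, with an SD of 0.0507 at percentile 1.07. Therefore the 1 gene past the threshold was also the steadiest of the list, and the intervals of the other tested probes were all wider than its own.

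Individual hearts tended to be high or low for several of the genes together. In SIRT1 KO replicate 1, 8 of the 9 genes were above their genotype mean, by 0.24 on average, and in replicate 2 it was 7 of 9. In SIRT1 KO replicates 3 and 4 it was 1 of 9 each, with average deviations of -0.08 and -0.23. Among WT hearts, replicates 1, 2 and 3 each had 6 of 9 genes above the mean, and replicate 4 had 2 of 9 with an average deviation of -0.18. The mean log2 signal of the 9 genes was thus 1.58, 1.59, 1.58 and 1.34 in WT hearts and 1.75, 1.60, 1.43 and 1.28 in SIRT1 KO hearts, and the lowest heart of each genotype was replicate 4. Replicate number is also the position of the array on its slide, so that replicate 4 hearts were both at position 4, and the part of position was not tested.

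**Figure D3:**
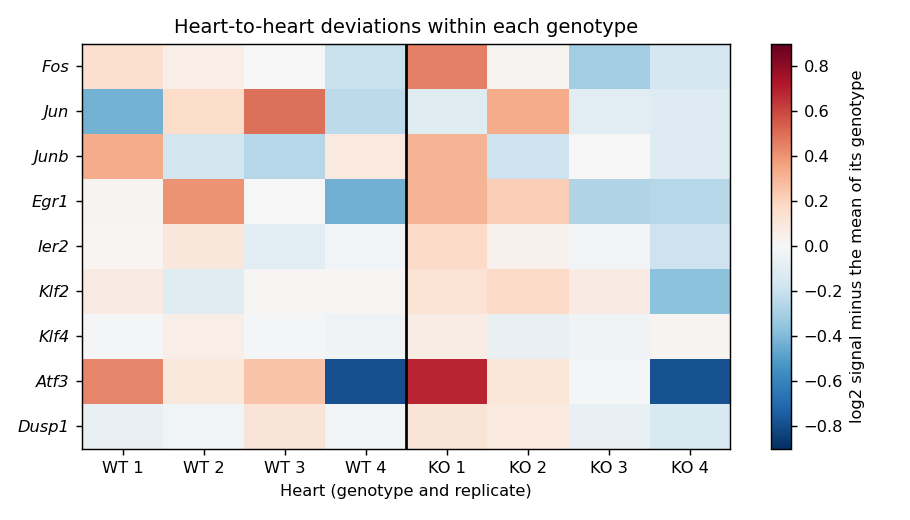
Deviation of log2 signal from the mean of the same genotype (color) for 9 immediate early genes (rows) in 4 WT and 4 SIRT1 KO hearts (columns; KO stands for SIRT1 KO). SIRT1 KO replicate 1 is above its genotype mean for 8 of 9 genes, replicate 4 of both genotypes is mostly below it, and the Klf4 row stays close to 0.

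Correlations over the 8 hearts were computed for all 28 pairs of the 8 genes other than *Klf4*, which was left out because its hearts fall into 2 separate clusters. Each gene was read by its brightest probe. The other *Junb* and *Klf2* probes were not correlated, so whether a pair holds on them was not tested. Pearson's r was above 0 in 23 pairs, with a median of 0.35. Of the 28 pairs, 5 had an unadjusted p below 0.05 for r by the exact permutation test and 0 had an adjusted p below 0.05, the 5 all with an adjusted p of 0.245. *Fos* was paired with *Atf3* (r = 0.75, exact permutation p = 0.0314; Spearman's coefficient = 0.86, exact permutation p = 0.0107) and with *Egr1* (r = 0.73, exact permutation p = 0.0366; Spearman's coefficient = 0.86, exact permutation p = 0.0107). Without the 2 hearts farthest from the median of *Fos*, r was 0.96 for *Atf3* and 0.67 for *Egr1*. *Egr1* was paired with *Atf3* (r = 0.73, exact permutation p = 0.0438, Spearman's coefficient = 0.76, exact permutation p = 0.0368). *Klf2* was paired with *Dusp1* (r = 0.73, exact permutation p = 0.0437, Spearman's coefficient = 0.57, exact permutation p = 0.151). Without the 2 hearts farthest from the median of *Egr1*, r for *Egr1* with *Atf3* was 0.35. Without the 2 farthest from that of *Klf2*, r for *Klf2* with *Dusp1* was 0.27. Hearts far from the median of the other gene of a pair were not left out. *Jun* and *Junb* had the lowest value (r = -0.83, exact permutation p = 0.0130; Spearman's coefficient = -0.88, exact permutation p = 0.0072), with r = -0.73 without the 2 hearts farthest from the median of *Jun*. Among WT hearts, the order of *Junb* was the exact reverse of that of *Jun*, and among SIRT1 KO hearts it was not. For Spearman's coefficient, the adjusted p was 0.10 for *Fos* with *Atf3*, *Fos* with *Egr1* and *Jun* with *Junb* by the exact permutation test. Correlations within a slide of 4 hearts were not computed.

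**Figure D4:**
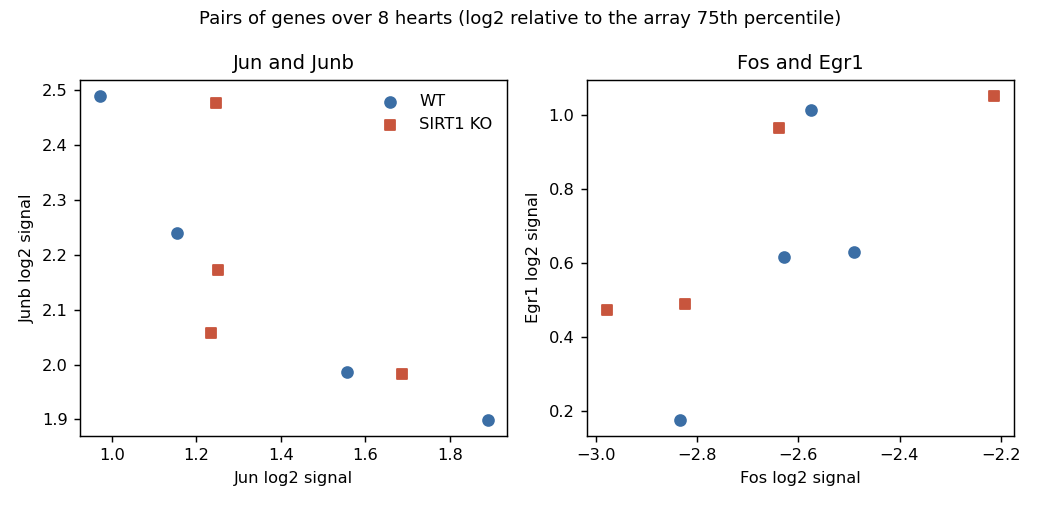
Log2 signal of Junb against Jun (left) and of Egr1 against Fos (right), each relative to the array 75th percentile, with 1 point per heart (4 WT circles, 4 SIRT1 KO squares). Junb, read by its brighter probe only, is high where Jun is low (r = -0.83). Egr1 is high where Fos is high (r = 0.73), and neither pair separates the genotypes.

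The genes outside the list whose brightest probe followed the mean of the 9 genes most closely were *Atxn1l* (r = 0.969), *Agbl3* (r = 0.945), *Phax* (r = 0.938), *Slc35f5* (r = 0.938) and *Armcx3* (r = 0.937), out of 12818 genes well above background on all 8 arrays. These are the highest of many values over 8 hearts and are given as a description. *Atxn1l*, for example, had log2 signals of 1.59, 1.61, 1.63 and 1.42 in WT and 1.72, 1.62, 1.54 and 1.46 in SIRT1 KO hearts, the same low replicate 4 in both genotypes.

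Other immediate early transcription factors were read by 20 genes, of which 17 were tested and 0 passed the threshold in limma or the analysis of variance, with 1 at an unadjusted p below 0.05 in each (20.4% and 20.6% of all genes). Of all genes tested, 3.69% passed as higher and 0.897% as lower. Of the 17, 6 were higher and 11 lower, with a median difference of -0.03. *Fosl1*, *Egr4* and *Nr4a3* were at background on all 8 arrays. *Cebpb*, a leucine zipper factor of inflammation and differentiation, had the smallest p, with means of -1.97 ± 0.13 in WT and -2.32 ± 0.19 in SIRT1 KO hearts (SD, n = 4 each) that did not overlap. Its difference was -0.35 (SE 0.11, adjusted p = 0.120 from limma). *Klf6*, another Krüppel-like factor, followed with a difference of -0.21 (SE 0.09, adjusted p = 0.245 from limma).

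Early genes that do not encode transcription factors, such as feedback inhibitors, RNA-binding proteins and secreted factors, numbered 40. Of these, 37 were tested and 0 passed the threshold in limma or the analysis of variance, with 4 at an unadjusted p below 0.05 in each, a smaller share than over all genes. There were 15 higher and 22 lower, with a median of -0.06. *Il6*, the inflammatory cytokine, was detected above background in all 4 WT hearts and in 1 SIRT1 KO heart, with log2 signals of -4.82, -4.09, -4.60 and -4.58 in WT and -6.18, -4.97, -5.40 and -5.72 in SIRT1 KO hearts. Every SIRT1 KO heart was below every WT heart, but 3 of the 4 SIRT1 KO values were not well above background. The probe entered the test through the WT hearts, so the difference of -1.04 is a description of uncertain size, and over the alternatives it ran from -1.26 to -0.13. *Spry4*, a feedback inhibitor of receptor tyrosine kinase signaling, was well above background on 3 WT and 4 SIRT1 KO arrays, with a difference of 0.75 (SE 0.24, adjusted p = 0.116 from limma).

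Kinases and transcription factors upstream of the early response, from Raf and the MAP kinases to SRF, CREB and MEF2, made a list of 33 genes, 32 of them on the array. Of the 31 tested, 1 passed the threshold as higher, against 3.69% of all genes, with 15 higher, 16 lower and a median of -0.01. An unadjusted p below 0.05 was found for 4 in limma and 6 in the analysis of variance, again no larger a share than over all genes. The gene past the threshold was *Rps6ka1*, which encodes the kinase RSK1 downstream of ERK, with log2 signals of -0.64, -0.87, -0.98 and -0.96 in WT and -0.52, -0.37, -0.39 and -0.53 in SIRT1 KO hearts. All SIRT1 KO hearts were above all WT hearts, with a difference of 0.41 (SE 0.09, adjusted p = 0.0425 from limma). The call was lost under most alternatives, among them the analysis of variance (adjusted p = 0.0839) and the removal of any 1 heart other than WT replicate 1 (difference 0.37 to 0.44, adjusted p up to 0.121 from limma). Relative to the median of all probes, the difference was 0.40 under the main, the median and no scaling and 0.26 with normexp. Of 10 heat shock genes, which also answer handling stress, 0 passed the threshold or had an unadjusted p below 0.05 in limma or the analysis of variance, with 5 higher and 5 lower and a median of -0.01.

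**Figure D5:**
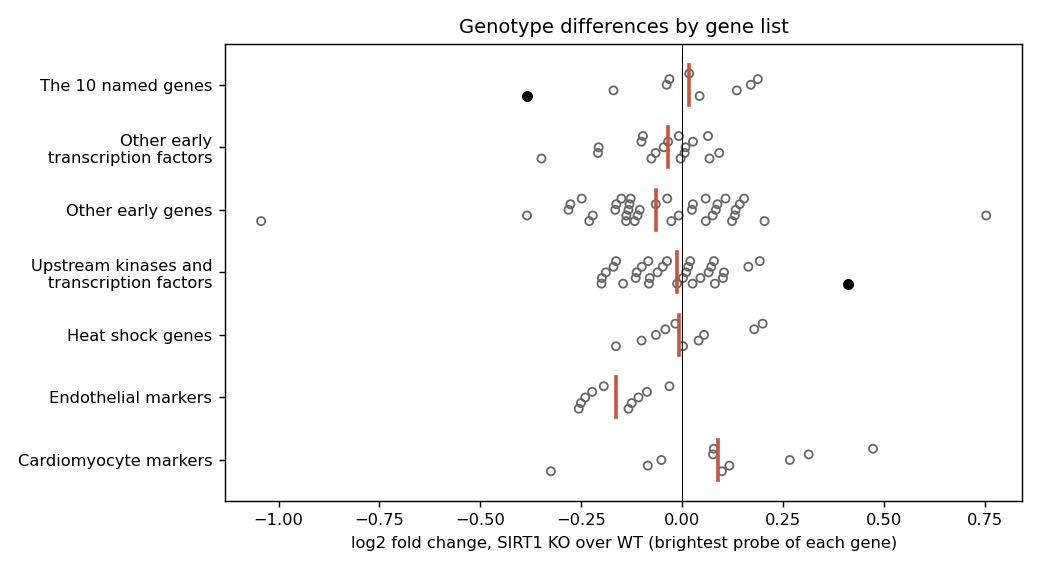
Log2 fold change of SIRT1 KO over WT (x axis) for the brightest probe of each tested gene in 7 lists (y axis); filled points have adjusted p below 0.05 from limma and red bars are list medians. Klf4 and Rps6ka1 are the filled points, Il6 lies at -1.04, and the 10 endothelial markers are all below 0.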

How the data were processed

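Total RNA (500 ng) from 1 E18.5 heart per array was labelled with Cy3 and hybridized to Agilent 4x44 mouse arrays (014868). The authors deposited spot intensity values as written by Agilent Feature Extraction (12.0.0.7 in the file headers, an earlier version in the methods), background-subtracted and with no scaling between arrays, and a value table equal to them in 100% of spots. The methods' test was an analysis of variance.

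Here, control and outlier spots were left out, log2 of the intensity was taken, spots of a probe were averaged, and each array was scaled to its own 75th percentile by subtraction. Accessions were matched to RefSeq names of GRCm38.p6, which named 28223 of 41174 probes (68.5%). Probes well above background on at least 4 arrays (25616) were tested with limma 3.58.1 in R 4.3.3 (lmFit, eBayes, Benjamini-Hochberg). Lists use the brightest probe of a gene. The text names all probes of the 10 genes, the genes past the threshold in each of the 3 signalling lists or else the 2 with the smallest p, and the 5 genes most like the mean of the 9. The members and lists were chosen with earlier results of these data known. In simulated data of 25535 probes with 200 changed by 1 log2 unit, 79.5% were recovered. Smaller changes, such as that of *Klf4*, were not simulated. The number of arrays limits the precision. Alternatives were other scalings, no filter, array weights, the analysis of variance, a replicate block, normexp, and leaving out each heart. Python 3.11.15, numpy 2.4.6, pandas 2.3.3 and matplotlib 3.10.9 were used.

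Marker lists also read for every heart were cardiomyocyte (7 of 10 higher, none past the threshold, 3 at an unadjusted p below 0.05, median difference 0.09, summed level 1437 to 1560 in WT and 1427 to 1682 in SIRT1 KO hearts), fibroblast and epicardial (3 of 10 higher, summed level 281 to 329 in WT and 272 to 324 in SIRT1 KO hearts), macrophage and leukocyte (7 of 9 higher), erythroid (3 of 6 higher, 1 past the threshold as higher against 3.69% of all genes, this being Hbb-y at 0.92 with adjusted p = 0.0078 from limma, 3 at an unadjusted p below 0.05 against 20.4% of all genes, summed level 220 to 261 in WT and 174 to 216 in SIRT1 KO hearts, which did not overlap), liver (6 of 6 higher, none past the threshold), and lung and thymus (1 gene above the filter in each).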

Additional observations from a re-analysis of the deposited data

Results flagged for a closer look

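Among 44 sets of 4 hearts tested for a single distant value (both genotypes of the 22 probes named), 2 held one, about what chance gives at 1 in 20. For Jun, SIRT1 KO replicate 2 had a log2 signal of 1.69 while the other 3 hearts of its genotype lay close together, and the gap took up 0.966 of the range of the group. For Slc35f5, a gene chosen for its likeness to the members, WT replicate 4 had a log2 signal of 1.98, below the other WT hearts, with a gap of 0.886 of the range.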

How the results depend on the processing

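Klf4 remained the single member past the threshold under every alternative except no scaling between arrays, where 2 members passed: Ier2 joined it at -0.39 (adjusted p = 0.0447 from limma) while the median of all probes stood at -0.21. The median of the members was then -0.20. The number of probes past the threshold over the whole array was 1250, and it became 546 by the analysis of variance, 2277 with array weights, 6347 without scaling, 2566 with normexp on the median signal (chosen after seeing the data), and 657 to 1825 when 1 heart was left out. Of these calls 81.4% were higher in SIRT1 KO hearts, against 38.1% with median scaling, 637 of the 6347 without scaling, 63.9% with quantile normalization and 73.0% with array weights. Other immediate early genes past the threshold numbered 1 with array weights (Spry4), normexp (Spry4), quantile normalization (Il6) and the replicate block (Il6), 2 with median scaling (Cebpb and Il6), 9 without scaling, all lower, and 0 to 1 when 1 heart was left out. Il6 entered these tests through its WT hearts, with 3 of 4 SIRT1 KO values not well above background, so its calls are no support; its adjusted p ran from 0.0133 (replicate block) to 0.356 (normexp, difference -0.128) in limma. Spry4 was near the floor as well, and over the alternatives its difference ran from 0.46 (normexp) to 0.93 (without SIRT1 KO replicate 3). Differences that turned their sign, none of them past the threshold, were as follows. Without scaling, they were -0.063 and -0.202 for Junb (A_51_P159194 and A_51_P159201), -0.084 for Egr1, -0.129 and -0.049 for Klf2 (A_51_P144264 and A_52_P442031), -0.176 for Atf3 and -0.032 for Dusp1. With median scaling, they were -0.111 for Junb (A_51_P159201), -0.038 for Klf2 (A_51_P144264) and -0.085 for Atf3. With normexp, they were -0.157 for Junb (A_51_P159201), -0.0017 for Atf3 and 0.057 for Fos, and with array weights 0.053 for Fos. Leaving out 1 heart gave -0.181 to 0.074 for Fos, -0.179 to 0.127 for Jun, -0.084 to 0.130 for Junb (A_51_P159201), -0.0083 to 0.270 for Egr1, -0.221 to 0.305 for Atf3 and -0.099 to 0.130 for the median of the members. The turns without scaling and with median scaling follow a common shift, in which the median of all probes went from 0.01 to -0.21 and -0.12; the cause of those with normexp and array weights was not tested. With the replicate number as a block, 1185 probes passed and Klf4 had -0.38 (adjusted p = 0.0473 from limma), while Rps6ka1 lost its call (adjusted p = 0.0771 from limma). The labels give the numbers as replicates and name no pairing, and the main fit used none. The correlation of deviations between same-numbered hearts over 25535 probes was 0.204, 0.207, 0.0562 and 0.141, and each heart correlated best with its own number. A pairing and a shared position on the slide cannot be told apart here. The exact permutation tests treated hearts as exchangeable. A slide block could not be fitted, and normexp on the mean signal was not run because the files used here hold the median signal.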
